A study of Mus musculus with 6 samples.

Results

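The T cell receptor complex genes are 10 genes that build the receptor by which T cells see antigen or that carry its first signal. They were taken by symbol from the table of raw counts, where each symbol had 1 row among the 54532 gene identifiers. They comprise 4 constant regions of receptor chains (Trac, Trbc1, Trbc2 and Trdc), 4 chains of the CD3 signalling module (Cd3d, Cd3e, Cd3g and Cd247) and 2 kinases (Lck and Zap70). Expression was measured by RNA sequencing of epididymal white adipose tissue, a visceral fat depot, from mice after 16 weeks on a high-fat diet. The knockout group, 3 libraries, carried the floxed PD-1 gene and Lyz2-Cre (PD-1 fl/fl Lyz2-Cre), so that PD-1 was deleted in macrophages and other myeloid cells, in which the Lyz2 promoter is active. The control group, 3 libraries, was of littermates with the same floxed alleles and no Cre (PD-1 fl/fl). Both groups shared the floxed gene, the diet and its duration. Whether the libraries are separate animals is not in the labels, and the spread between them may be technical. The list was chosen by the genotype contrast of the counts in these libraries, in which Trac stood apart from the other chains, together with the genes' known roles. Knockout and control values of the members are therefore given as a description, with no test.

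A T cell receptor is a pair of variable chains, alpha with beta or, in a smaller class of T cells, gamma with delta. Each chain joins a variable part, assembled from V, D and J gene segments, to a constant region encoded by genes such as Trac (alpha), Trbc1 and Trbc2 (beta) and Trdc (delta). The pair has no signalling part of its own and needs the CD3 delta, epsilon and gamma chains and the zeta chain (Cd247) to reach the cell surface and to signal. The kinase Lck phosphorylates those chains, Zap70 then docks on them, and PD-1 on T cells is known to dampen this step. In obese fat, T cells accumulate together with macrophages. The design did not target PD-1 in T cells.

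Pdcd1, which encodes PD-1, had 19, 19 and 5 counts in knockouts 1 to 3 and 13, 0 and 0 in controls 1 to 3, and at these counts of a tissue with other PD-1-bearing cells it is no check of the deletion. Libraries held 20108185 to 27225533 counts. Control replicate 2 had a liver profile: 12 hepatocyte markers summed to 221291 CPM (counts scaled to library size by the trimmed mean of M values) there, against 9.71 to 1102 in knockouts and 11.6 and 6567 in control replicates 1 and 3. Its 9 adipocyte markers summed to 825 CPM, against 13996 to 59402 in the 5 other libraries. Fold changes of the members are therefore given with and without control replicate 2. Replicate numbers follow accession order and only name the libraries. T cell genes are a small part of whole fat: the 10 members summed to 17.1 to 37.8 CPM in a library, and 3 counts, taken as the floor of detection in 1 library, equalled 0.098 to 0.268 CPM. In such bulk tissue fewer T cells and less RNA per T cell cannot be told apart.

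The sequences of the constant regions bear on how far their counts can be trusted as separate. The first coding exon is shown whole for the alpha chain and from position 126 to its end at 375 for both beta chains, 5′ to 3′ on the plus strand of GRCm38, from the GENCODE vM21 transcripts. The capital marks the single position, counted from 1 at the exon's 5′ end, at which the beta exons differ.

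Trac (chr14:54220521-54220781): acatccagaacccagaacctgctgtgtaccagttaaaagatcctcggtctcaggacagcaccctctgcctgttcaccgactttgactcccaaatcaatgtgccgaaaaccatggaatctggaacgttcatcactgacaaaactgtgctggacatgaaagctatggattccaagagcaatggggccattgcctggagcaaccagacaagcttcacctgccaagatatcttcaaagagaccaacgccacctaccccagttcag

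Trbc1 (chr6:41538343-41538592): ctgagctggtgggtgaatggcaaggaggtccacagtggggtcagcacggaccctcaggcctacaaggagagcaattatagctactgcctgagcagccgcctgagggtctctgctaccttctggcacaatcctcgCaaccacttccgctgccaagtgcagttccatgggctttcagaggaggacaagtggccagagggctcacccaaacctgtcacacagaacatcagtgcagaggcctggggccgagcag

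Trbc2 (chr6:41546855-41547104): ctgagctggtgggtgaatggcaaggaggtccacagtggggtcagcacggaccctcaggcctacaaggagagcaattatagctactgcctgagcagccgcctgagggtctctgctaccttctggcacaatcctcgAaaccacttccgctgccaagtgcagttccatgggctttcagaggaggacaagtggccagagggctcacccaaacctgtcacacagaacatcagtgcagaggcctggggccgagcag

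Over the whole 375 bases the beta exons were identical at 374 (99.7%), the difference being C260A from Trbc1 to Trbc2, and the longest identical run was 259 bases. Of all 50-base windows of the longest annotated transcript, 41.1% of Trbc1 and 44.0% of Trbc2 occurred in the other gene, and the division of reads between them is uncertain. Trac is different in this respect. It lies on chromosome 14 from 54220521 to 54224206, overlaps no other annotated gene, and none of its 886 windows occurred in a transcript of another gene, on either strand. The nearest gene downstream, Dad1, lies 11273 bases away on the opposite strand. Dad1, a subunit of the enzyme that adds sugars to new proteins, had 102.9, 83.6 and 150.1 CPM in knockouts 1 to 3 and 156.9, 161.6 and 83.5 in controls 1 to 3, and its values overlapped between the groups.

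Trac, the alpha constant region shared by every alpha-beta T cell, had 481, 282 and 344 counts in knockouts 1 to 3 and 36, 22 and 66 in controls 1 to 3. Scaled for depth, these were 15.7, 9.89 and 13.3 CPM against 1.35, 1.97 and 2.42 CPM. Every knockout stood above every control, and the lowest knockout was 4.09 times the highest control. Group means were 12.99 ± 2.93 CPM (SD, n = 3) and 1.91 ± 0.538, and the fitted log2 fold change was 2.76 ± 0.43 (SE), or 2.79 ± 0.42 without control replicate 2. Of the 15928 genes tested, 1.32% had a log2 fold change at least as high as that of Trac, and 1.45% of 16729 did without control replicate 2.

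The beta constant regions also had all knockouts above all controls, by far less. Trbc1 had 3.14, 4.03 and 3.76 CPM in knockouts 1 to 3 and 2.77, 2.41 and 2.38 in controls 1 to 3. Its lowest knockout was 1.13 times its highest control, and the log2 fold change was 0.53 ± 0.42 (SE), or 0.51 ± 0.40 without control replicate 2. Trbc2 had 3.01, 3.33 and 4.42 CPM against 1.72, 0.805 and 2.42, with a log2 fold change of 1.11 ± 0.56, or 0.80 ± 0.44 without control replicate 2. Since reads of these twin genes can be exchanged, their sum is the firmer value: 188, 210 and 211 counts in knockouts 1 to 3 against 120, 36 and 131 in controls 1 to 3.

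Trdc, the delta constant region of gamma-delta T cells, was sparse. It had 21, 42 and 32 counts in knockouts, against 0, 0 and 8 in controls. All 3 knockouts lay above all 3 controls, but no control library had 10 counts, and the gene entered the fit through the knockout group alone. Its log2 fold change of 3.31 ± 1.33 (SE), or 2.93 ± 1.31 without control replicate 2, carried a wide error and ranged from 0.30 to 7.99 over the 18 other settings tried. Part of its exon sequence, 7.84%, lies in exons of other genes, among them the variable segment Trdv5 on the opposite strand. The 4 gamma constant genes, whose chains pair with delta, did not follow it: they summed to 38, 56 and 12 counts in knockouts 1 to 3 and 22, 3 and 28 in controls 1 to 3, so knockout 3 lay below 2 of the controls.

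**Figure D1:**
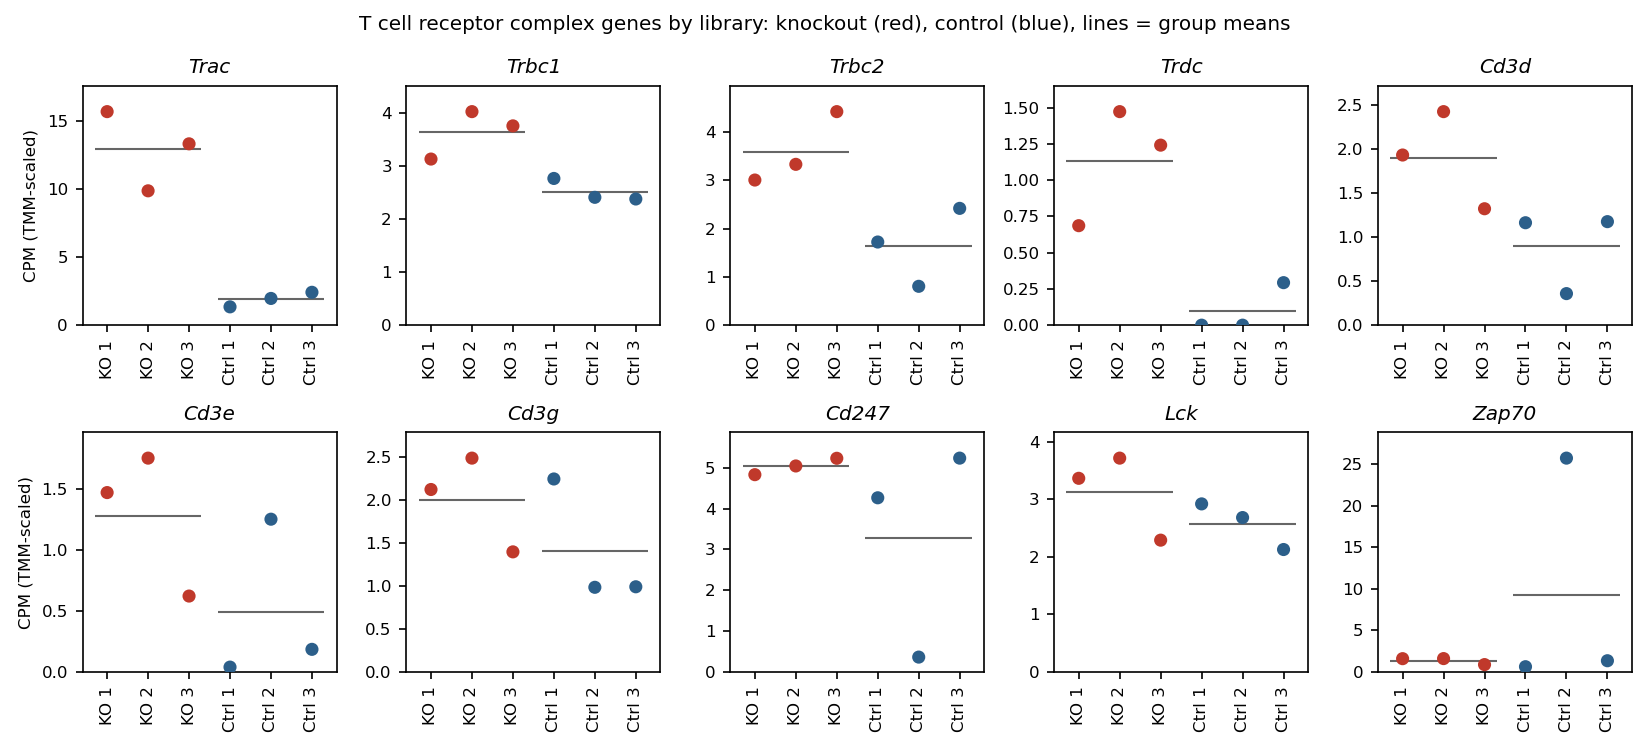
CPM of the 10 genes in the 6 libraries, 1 panel per gene with its own vertical axis from 0; red points are knockouts, blue points controls and grey lines group means. Trac separates the groups by a wide gap (lowest knockout 9.89, highest control 2.42 CPM), while Cd3g, Cd247 and Lck overlap and Zap70 is set by the 25.8 CPM of control replicate 2.

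The CD3 delta, epsilon and gamma chains come from a compact cluster on chromosome 9, where Cd3g and Cd3d are read outward from starts 1354 bases apart and Cd3e lies 11400 bases beyond Cd3d. Because these neighbours encode partner chains and were measured together, the 250 bases before their starts are shown, each on its gene's own strand from RefSeq promoters on GRCm38.p6. Capitals mark GGAAG, the core letters bound by ETS factors, or its reverse complement CTTCC.

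Cd3g (chr9:44980432-44980681, minus strand): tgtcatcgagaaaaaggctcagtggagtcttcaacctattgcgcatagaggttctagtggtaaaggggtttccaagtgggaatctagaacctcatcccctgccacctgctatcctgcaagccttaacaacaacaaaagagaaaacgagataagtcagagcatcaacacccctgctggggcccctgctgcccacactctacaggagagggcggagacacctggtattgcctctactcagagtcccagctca

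Cd3d (chr9:44981536-44981785, plus strand): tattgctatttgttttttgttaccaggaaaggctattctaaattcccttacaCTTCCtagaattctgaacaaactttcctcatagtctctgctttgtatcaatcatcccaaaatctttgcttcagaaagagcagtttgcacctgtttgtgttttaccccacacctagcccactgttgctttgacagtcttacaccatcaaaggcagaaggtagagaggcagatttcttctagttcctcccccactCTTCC

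Cd3e (chr9:45009612-45009861, minus strand): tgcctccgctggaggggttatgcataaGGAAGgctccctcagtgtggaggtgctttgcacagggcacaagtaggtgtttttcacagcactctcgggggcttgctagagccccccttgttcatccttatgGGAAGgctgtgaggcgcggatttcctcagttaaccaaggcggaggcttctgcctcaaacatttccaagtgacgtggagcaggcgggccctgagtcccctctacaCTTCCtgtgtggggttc

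On both strands, GGAAG matched 0 times in Cd3g, 2 times in Cd3d and 3 times in Cd3e, and 64.1% of the 32851 promoter windows of the same length in the table hold it. TATAAA was in none of the windows of the 6 members with a promoter entry, where 12.4% of all windows hold it. The E-box letters CANNTG were in all 3 CD3 windows (3 matches in Cd3g, 1 in Cd3d and 1 in Cd3e), as in 66.2% of all windows. These matches describe letters, and they were not related to binding here.

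Cd3d, the delta chain, had 1.93, 2.42 and 1.32 CPM in knockouts 1 to 3 and 1.16, 0.358 and 1.17 in controls 1 to 3. The groups did not overlap, but knockout 3 and control 3 were close, at 34 and 32 counts. The log2 fold change was 1.05 ± 0.65 (SE) with all 6 libraries and 0.71 ± 0.53 without control replicate 2.

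Cd3e, the epsilon chain present in both CD3 pairs, had 45, 50 and 16 counts in knockouts, against 1, 14 and 5 in controls. The 14 counts came from the library with the liver profile, which lay close to the 16 counts of knockout 3 and, once scaled, above it (1.25 and 0.621 CPM). With that library the log2 fold change was 1.49 ± 1.21 (SE), and without it 3.51 ± 1.00. Low counts in control replicates 1 and 3 make the second value imprecise, and 3.31% of the exon bases are shared with the overlapping gene model Gm48719 on the opposite strand. Without control replicate 2 no control library had 10 counts, and Cd3e, like Trdc, entered that fit through the knockout group alone.

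Cd3g, the gamma chain of the CD3 module, overlapped between the groups. It had 2.12, 2.49 and 1.40 CPM in knockouts 1 to 3 and 2.25, 0.984 and 0.990 in controls 1 to 3, with control 1 above 2 of the knockouts. The log2 fold change of 0.50 ± 0.59 (SE) was within its error and fell to 0.32 ± 0.60 without control replicate 2. Without control replicate 2, Cd3d and Cd3e of this cluster thus had no overlap between groups and Cd3g had overlap, and the difference among the chains was not tested.

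Cd247, the zeta chain, was nearly level in fat. It had 4.84, 5.05 and 5.24 CPM in knockouts 1 to 3 and 4.27 and 5.24 in controls 1 and 3, a highest-to-lowest ratio of 1.23 over these 5 libraries, against 1.69 for Trbc1 and 11.7 for Trac. Control replicate 2 stood alone at 0.358 CPM (4 counts). The log2 fold change was 0.60 ± 0.85 (SE) with it and 0.10 ± 0.34 without it. Its counts may not be its own alone, because 60.3% of its exon bases lie in exons of other genes, chiefly Pou2f1, a broadly active transcription factor gene on the opposite strand. Pou2f1 itself had 6.40 to 9.39 CPM in the 6 libraries, and was highest in control replicate 2, where Cd247 had its 4 counts. How the authors assigned reads from the shared bases is not given in the sources used here, and the part of Pou2f1 reads in Cd247 was not tested.

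Of the kinases, Lck, which starts the signal, had 3.37, 3.72 and 2.29 CPM in knockouts 1 to 3 and 2.92, 2.68 and 2.13 in controls 1 to 3. The groups overlapped, and the log2 fold change was 0.28 ± 0.46 (SE), or 0.32 ± 0.46 without control replicate 2. Zap70, which carries the signal on, had 48, 45 and 22 counts in knockouts, against 16, 288 and 36 in controls. The 288 counts, 25.8 CPM, belonged to control replicate 2, and the 5 other libraries held 0.599 to 1.58 CPM and overlapped. The sign of its log2 fold change turned with that library, from −2.77 ± 1.42 (SE) to 0.49 ± 0.65 without it.

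Zap70 was the only member whose CPM in the library with the liver profile lay above all 5 other libraries. There it took 70.4% of the counts of the 10 genes, against 2.47% to 7.11% elsewhere. Other T cell genes were mixed there. Cd8a, Bcl11b and Ptprcap had 0 counts each, and all V, D and J segments together had 0, which allows up to 3 counts, whereas Tox (16.4 CPM), Cd5 (1.88) and Icos (1.52) were at their highest of the 6 libraries and Themis had 50 counts. These 7 genes were singled out after their values were seen. Control replicate 3, the library with the next highest hepatocyte sum, had 1.32 CPM of Zap70, within the range of the knockouts (0.854 to 1.58 CPM). Its hepatocyte sum was far smaller, at 6567 CPM against 221291, and the source of the Zap70 counts in control replicate 2 was not tested. No other annotated gene shares exon bases or 50-base windows with Zap70.

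**Figure D2:**
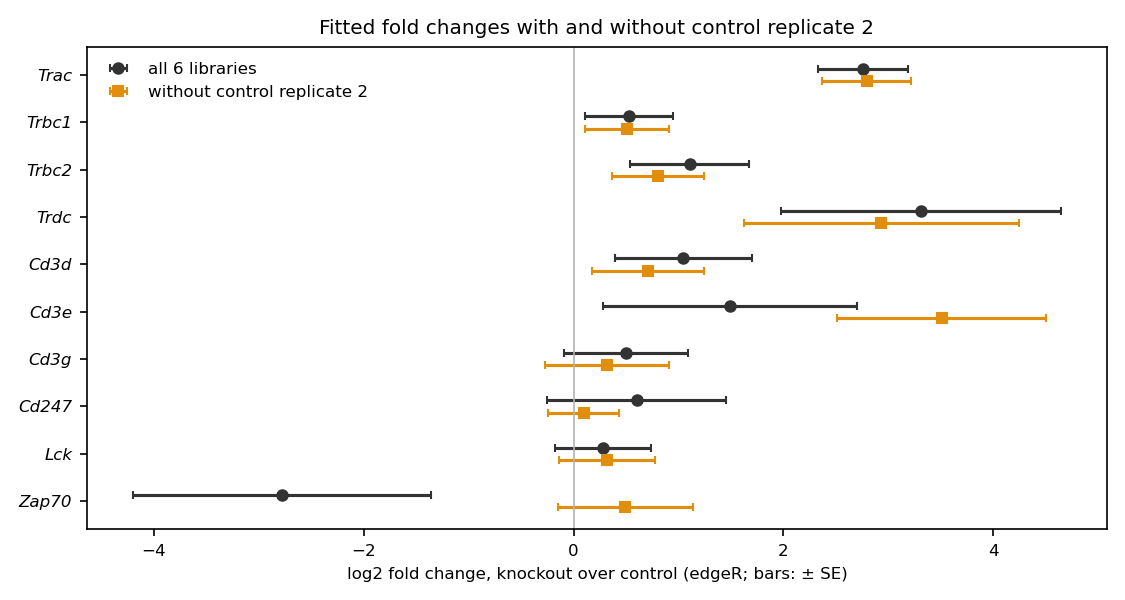
Fitted log2 fold change, knockout over control, of each gene (points) with its standard error (bars), with all 6 libraries (black circles) and without control replicate 2 (orange squares). Trac stays near 2.8 with a short bar in both, Zap70 moves from −2.77 to 0.49 and Cd3e from 1.49 to 3.51, and the bars of Cd3g, Cd247 and Lck take in 0.

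Taken as a list, 9 of the 10 members had a log2 fold change above 0 with all 6 libraries, where 48.0% of all genes tested did, and 10 of 10 without control replicate 2, where 47.1% did. The median over the members was 0.82, or 0.61 without that library, beside −0.03 and −0.04 for all genes tested. Knockout and control values did not overlap, knockouts above, for 5 of 10 members (Trac, Trbc1, Trbc2, Trdc and Cd3d), where 9.54% of all genes did so. No member had all knockouts below all controls, where 5.61% of genes did. Without control replicate 2 knockouts were above controls for 6 of 10 (Cd3e being added), where 13.6% of all genes did, and below for 0, where 11.9% did. Trdc in both sets, and Cd3e without control replicate 2, passed the filter on low counts through the knockouts alone. The lack of overlap and the calls of these genes are therefore no support. By edgeR's quasi-likelihood test 0 of 10 members passed an adjusted p of 0.05, as did 0% of the 15928 genes, and limma-voom also called 0% of genes. DESeq2 called 1 of the 9 members to which it gave an adjusted p (Trac), where it called 3.13% of all genes, and 2 of 10 (Trac and Cd3e) without control replicate 2, where it called 2.88%. Unadjusted edgeR p-values under 0.05 were found for 2 of 10 members (Trac and Trdc) and for 8.65% of all genes, and without control replicate 2 for 2 members (Trac and Cd3e) and 8.96% of genes. With limma-voom these were 2 members (Trac and Trdc) and 6.17% of genes, or 3 members (with Cd3e) and 7.69% of genes without control replicate 2. All of this is the contrast with which the members were chosen, and nothing is read from these counts.

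The chains of 1 receptor assemble in fixed proportions, so Trac was set against its partners within each library, which removes depth and scaling. Trac took 47.8% of the counts of the 8 receptor chains in knockout 1 (95% exact Clopper-Pearson interval 44.6% to 50.9%), 32.5% in knockout 2 (29.4% to 35.7%) and 42.6% in knockout 3 (39.1% to 46.1%). In controls 1 to 3 it took 9.94% (7.06% to 13.5%), 24.2% (15.8% to 34.3%) and 16.0% (12.6% to 19.9%). All knockout shares lay above all control shares, although the intervals of knockout 2 and control 2 overlapped, and intervals cover counting error only. The 8 chains include Cd247, whose counts may not be its own alone. It made up 148, 144 and 135 of the 1007, 868 and 808 counts in knockouts 1 to 3. In controls 1 to 3 it made up 114, 4 and 143 of 362, 91 and 412.

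Per beta-chain count (Trbc1 and Trbc2 together) there were 2.56, 1.34 and 1.63 Trac counts in knockouts 1 to 3 and 0.300, 0.611 and 0.504 in controls 1 to 3. The groups were apart by this measure, which sets the alpha chain against the chain it pairs with. Per count of Cd3d, Cd3e and Cd3g together there were 2.85, 1.48 and 4.00 Trac counts in knockouts, against 0.391, 0.759 and 1.03 in controls, again without overlap. In these libraries Trac thus differed between the genotype groups by more than the sum of the beta chains or of these CD3 chains did.

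Ratios to single members showed the same for most but not for all of them. The log2 ratio of Trac to another member, with 0.5 added to each count, differed between group means by 2.24 for Trbc1, 1.55 for Trbc2, 2.20 for Cd3g, 2.51 for Lck and 3.85 for Zap70, with no overlap between groups for these 5. Without control replicate 2 the Zap70 difference was 2.29. For Cd3d (1.60) and Cd247 (1.48) control replicate 2 overlapped the knockouts, and without it the groups were apart at 2.16 and 2.72. Against Trdc (−1.34) and Cd3e (0.48) the groups overlapped, so Trac did not stand apart from these sparse members, and without control replicate 2 the values were −1.04 and, with the sign turned, −0.68. The median over the 9 ratios was 1.60, or 2.29 without control replicate 2.

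**Figure D3:**
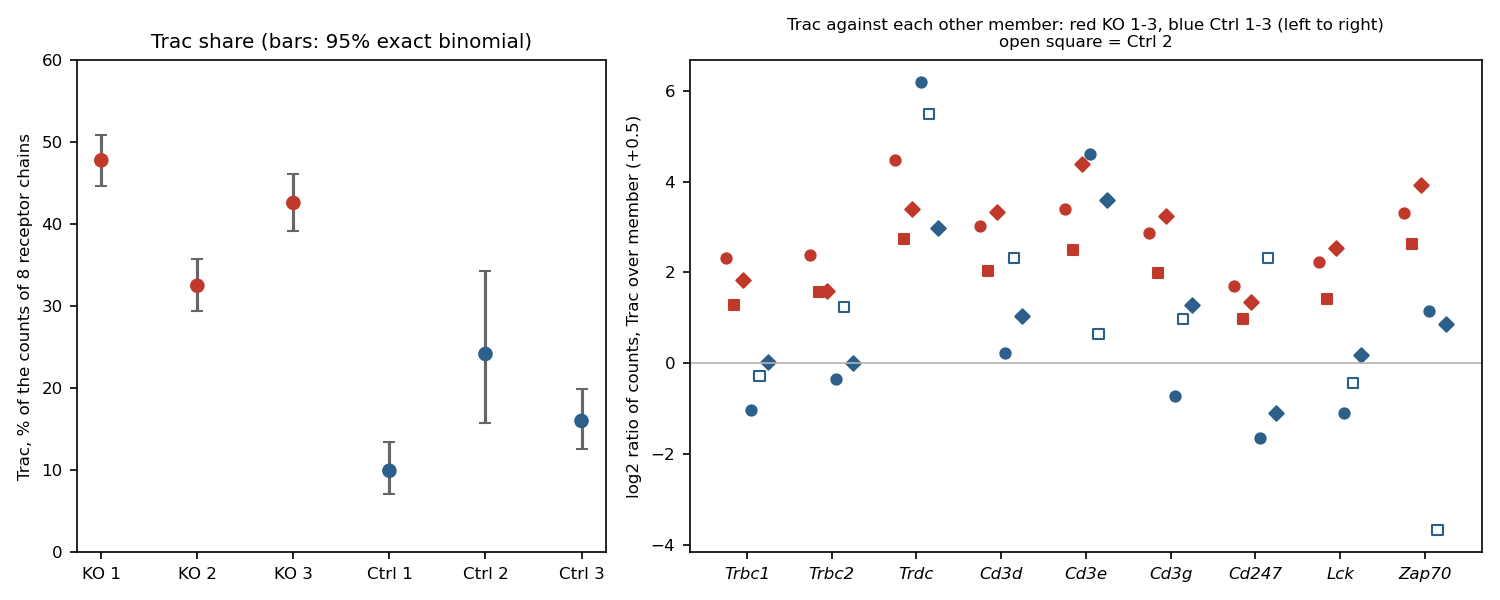
Left, the share of Trac in the counts of the 8 receptor chains by library, in percent, with 95% exact binomial intervals. Right, the log2 ratio of Trac counts to those of each other member in the 6 libraries (red knockouts, blue controls, open square control replicate 2); red points lie above blue ones for Trbc1, Trbc2, Cd3g, Lck and Zap70 and mix with them for Trdc and Cd3e.

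Levels of different genes can be compared per length with the deposited FPKM values (fragment counts scaled by exon length and library size). Trac was the highest of the 10 genes in each knockout, at 15.0, 9.70 and 12.5 FPKM, and the third in each control, at 1.25, 1.97 and 2.32 FPKM. The beta constant regions led in controls 1 and 3, with Trbc1 at 3.21 and 2.85 FPKM and Trbc2 at 2.16 and 3.14 FPKM, and Zap70 led in control 2 at 8.06 FPKM. Below them came Lck (0.651 to 1.16 FPKM over the 6 libraries), Cd247 (0.0629 to 0.882), Cd3d (0.185 to 1.22) and Cd3g (0.272 to 0.699), whose ranges overlap, and then Cd3e (0.00797 to 0.394) and Trdc, which was listed at 0 in controls 1 and 2 and reached 0.35.

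Cd3e, the chain that is in both CD3 pairs, was low on this scale, and gene length enters it. The length behind its FPKM was 4.36 times that of Trac, which is also the ratio of the annotated exon lengths (4080 and 935 bases), while its coding transcript Cd3e-201 has 1462 bases. The longest coding transcript of Trac equals its 935 exon bases. FPKM of the 2 genes are therefore not on equal terms. Length is not particular to Cd3e, since Cd3g has 3269 exon bases and 1023 in its coding transcript Cd3g-201. In raw counts too Cd3e was below Cd3d and Cd3g, for instance 16 against 34 and 36 in knockout 3. Control replicate 2 was the exception, at 14 against 4 and 11.

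**Figure D4:**
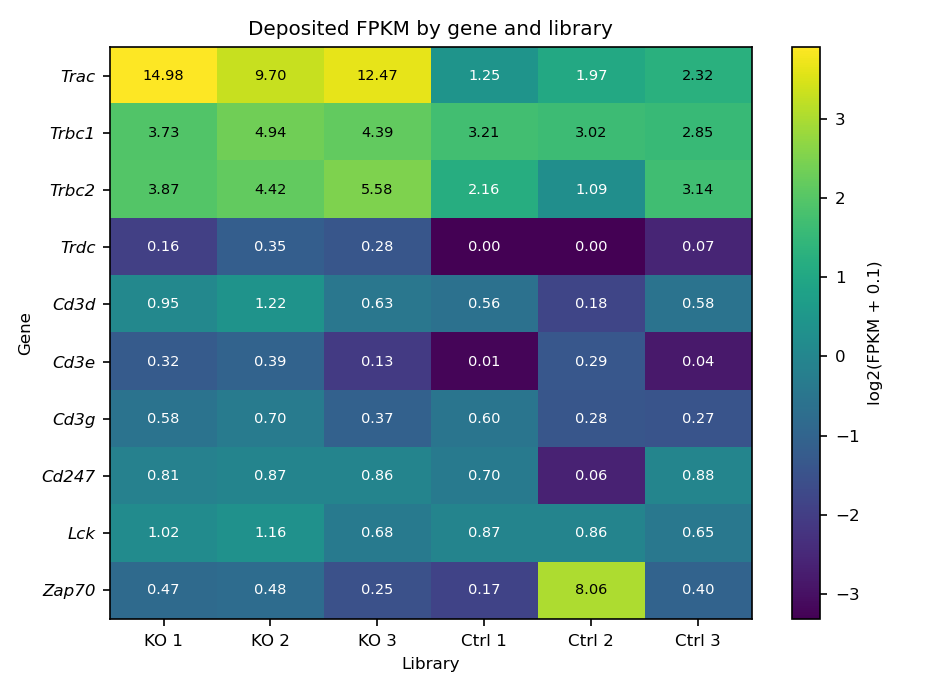
Deposited FPKM (number in each cell) of the 10 genes in the 6 libraries, coloured on a log2(FPKM + 0.1) scale. The Trac row is brightest in the 3 knockouts (9.70 to 15.0), Trbc1 is at 2.85 or above in all libraries, and Zap70 is bright in control replicate 2 alone (8.06).

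Variable, diversity and joining segments were not used by symbol in choosing the members. They belong to the same receptor transcripts and libraries, however, and so are no independent check of the members. Among 260 V, D and J segments, 53 had a count, and all of them together summed to 55, 103 and 38 counts in knockouts 1 to 3 and 38, 0 and 19 in controls 1 to 3. Scaled, this was 1.80, 3.61 and 1.48 CPM against 1.42, 0 and 0.697, so that knockout 3 and control 1 were almost equal. Group means were 2.29 ± 1.15 CPM (SD, n = 3) and 0.707 ± 0.712, with an exact two-sided permutation p of 0.1, the smallest that 3 against 3 libraries allow, and 0.2 after adjustment over the 2 sums tested. Without control replicate 2 the exact p was 0.2, again the smallest possible. The gamma constant genes summed to 1.22 ± 0.749 CPM in knockouts (n = 3) and 0.706 ± 0.393 in controls, with an exact permutation p of 0.4, or 0.8 without control replicate 2.

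Alpha segments, like Trac, had all knockouts above all controls, on very few counts. The 188 alpha V and J segments had 8, 34 and 6 counts in knockouts 1 to 3 and 4, 0 and 1 in controls 1 to 3, which is 1.66, 12.1 and 1.74 per 100 Trac counts in knockouts, against 11.1, 0 and 1.52 in controls. Knockout 2, the knockout with the fewest Trac counts, thus held the most alpha segment counts. The 51 beta V, D and J segments gave 20.7, 22.4 and 13.3 counts per 100 beta constant counts in knockouts 1 to 3 and 20, 0 and 7.63 in controls. The variety of segments was 25, 29 and 13 in knockouts, against 9, 0 and 7 in controls, and knockout 3 and control 1, with 38 segment counts each, had 13 and 9. Counts this low set wide limits, and how reads of rearranged segments were aligned is not given in the sources used here.

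Genes that act beside the receptor were examined through fixed lists. Of 36 proximal signalling genes, adaptors, kinases and phosphatases around the receptor, 33 were tested. By edgeR 0 passed in either direction, 31 had a log2 fold change above 0 and the median was 1.36, against −0.03 for all genes, and DESeq2 called 3 (Ptprc, Fyb and Dok2), all higher. Without control replicate 2 the median was 1.18 and DESeq2 called 7, adding Ptpn6, Lcp2, Rhoh and Ubash3b. Of all genes DESeq2 called 1.42% higher with all 6 libraries and 2.2% without control replicate 2. The smallest p-values were those of Dok2, an adaptor that restrains kinase signalling (46.5, 48.6 and 23.3 CPM in knockouts, 4.76, 7.33 and 11.1 in controls), Fyb, an adaptor of integrin activation (35.8, 50.3 and 7.02 against 2.62, 2.77 and 4.51), Ptprc and Lcp2. Several of these are expressed by myeloid cells as well. Ptprc, the phosphatase CD45 found on all white blood cells, had 131.4, 169.8 and 36.2 CPM in knockouts, against 15.2, 14.2 and 28.4 in controls.

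In the 20 distal signalling genes 14 were above 0, with a median of 0.45 and 0 edgeR calls. The DESeq2 calls, all higher, included Map4k1, a kinase that limits receptor signalling. Map4k1 had 14.9, 19.0 and 9.12 CPM in knockouts, against 2.70, 0.983 and 4.36 in controls. Of the 13 tested coreceptor and costimulation genes 11 were above 0, with a median of 0.86 and 0 calls by either tool. Their smallest p-values were those of Thy1 (18.0, 28.4 and 21.3 CPM against 7.34, 5.10 and 12.9), a surface protein of T cells that stromal cells also make, and Cd2, an adhesion receptor (3.92, 4.07 and 4.35 against 2.47, 0.894 and 1.98).

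The coreceptors that split T cells into helper and cytotoxic classes were low and overlapped between groups. Cd4 had 46, 50 and 15 counts in knockouts, against 12, 12 and 45 in controls, and Cd8a 89, 97 and 18 against 41, 0 and 26. Among 15 tested T lineage regulators 11 were above 0, with a median of 0.32 and 0 calls. Bcl11b, which maintains T cell identity, had 44, 24 and 45 counts against 23, 0 and 23. Once scaled, knockout 2 (0.842 CPM) lay just below controls 1 and 3 (0.861 and 0.843 CPM), so the groups overlapped. The homing and cytokine receptor list had 10 of 11 above 0 and a median of 1.29, with 0 calls by edgeR. The DESeq2 calls, all higher, included Il7r, the interleukin-7 receptor (86.0, 96.2 and 18.9 CPM against 4.27, 0.805 and 6.78). Il7r was thus many times lower in knockout 3 than in knockouts 1 and 2, unlike Trac.

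Markers of other white blood cells were highest in knockouts 1 and 2. The 12 macrophage markers summed to 4545, 5389 and 1332 CPM in knockouts 1 to 3 and 1274, 479 and 1028 in controls 1 to 3, with 12 of 12 above 0 (11 without control replicate 2), a median of 2.07 and none at 0 in any library. By edgeR 0 were called, and DESeq2 called 5 higher (Adgre1, Cd68, Fcgr1, Tyrobp and Lyz2), or 6 with Itgam without control replicate 2. Of all genes DESeq2 called 1.42% higher, or 2.2% without control replicate 2. All knockouts were above all controls for 8 of 12 markers, where 9.54% of all genes had this. The 10 B cell markers summed to 34.8, 51.9 and 6.09 CPM in knockouts, against 2.70, 5.81 and 6.34 in controls, so knockout 3 lay among the controls. Of 8 tested B cell markers 8 were above 0, with a median of 2.48 (3.00 without control replicate 2) and 0 edgeR calls. DESeq2 called 3 higher, or 4 without that library, beside the same shares of all genes as for the macrophage list. Knockout 3 held 1332 CPM of macrophage markers and 13.3 CPM of Trac. Control 3, the library whose title number is next to its own, held 1028 and 2.42 CPM, and control 1 held 1274 and 1.35 CPM. The part of these cells in the Trac result was not tested.

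NK cells and type 2 innate lymphoid cells, which can carry some of these transcripts, were also listed. The 13 NK markers summed to 15.3, 16.6 and 13.2 CPM in knockouts, against 8.76, 11 and 10.6 in controls, with 8 of 9 tested above 0, a median of 0.40 and 0 calls by either tool. Of the 9 tested NK markers 3 had all knockouts above all controls. Gzmb went the other way, with all knockouts below all controls and a log2 fold change of −0.73. Ncr1, a defining NK receptor picked as an example, had 12, 8 and 9 counts against 0, 0 and 5, and was too sparse to be tested by edgeR. Of 4 tested markers of type 2 innate lymphoid cells 2 were above 0, with a median of 0.28 and 0 calls by either tool. The 7 listed summed to 38.5 to 50.2 CPM in knockouts and 53.4 to 123.1 in controls, mostly Rora (29.99 to 37.1 and 49.8 to 113.1), while Il1rl1 had 11.6, 7.40 and 8.19 CPM against 2.55, 0 and 5.28. Their part in the Trdc result was not tested. Of 6 markers of immature T cells of the thymus, Rag1, Rag2 and Ptcra had 0 counts in every library. Dntt had 99 counts in control 2 and at most 7 elsewhere, Arpp21 had 36 in control 1 and at most 2 elsewhere, and Cd1d1, which other cells also make, had 186.2 to 646 CPM. Of 5 lymph node stroma genes Ccl21a and Ccl19 had at most 2 counts, Glycam1 had 8 in knockout 1 alone, Madcam1 had 29 in control 1 and at most 5 elsewhere, and Cxcl13 had 50, 80 and 5 counts in knockouts 1 to 3 and 258, 13 and 14 in controls 1 to 3.

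Set against all white blood cells, the groups overlapped. Per 1000 Ptprc counts there were 119.6, 58.3 and 368 Trac counts in knockouts 1 to 3 and 88.5, 138.4 and 85.2 in controls 1 to 3. The 7 other receptor chains gave 131, 121 and 497 per 1000 Ptprc counts in knockouts, against 801, 434 and 446 in controls, so in knockouts 1 and 2 they were lower relative to Ptprc than in any control. Ptprc is made by macrophages as well as by T cells, and it moved with the macrophage sum given above.

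**Figure D5:**
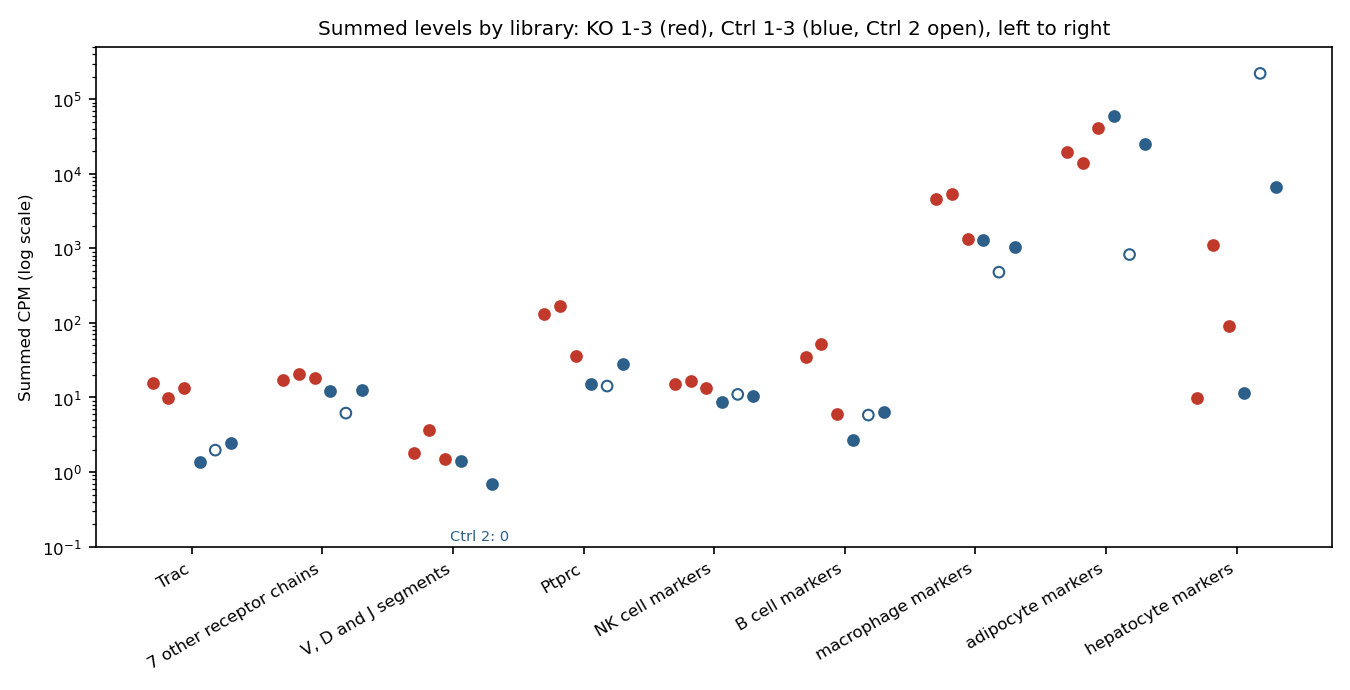
Summed CPM (log scale) by library of Trac, the 7 other receptor chains, the V, D and J segments, Ptprc and 5 marker lists, red for knockouts and blue for controls (open for control replicate 2). Trac is the measure with the widest gap between groups; in the macrophage and B cell lists knockout 3 lies next to or among the controls, and the segments were at 0 in control replicate 2.

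The title numbers of knockout 3 and control 3 adjoin each other and lie apart from the rest, and the labels give no meaning to these numbers. Between these libraries the log2 ratio of CPM, with 0.5 added, was 2.246 for Trac, 0.56 for Trbc1, 0.75 for Trbc2, 0.12 for Cd3d, 0.71 for Cd3e and 0.09 for Lck. Knockouts 1 and 2 over control 1 gave 2.85, 0.32, 0.72, 0.69, 1.97 and 0.24 in the same order. With 0.5 added, Trac was above each of the other members named here in both sets. For sparse members the added 0.5 sets much of the ratio. Cd3e had a mean of 1.61 CPM in knockouts 1 and 2 and 0.037 CPM in control 1. Trdc, at 1.08 and 0 CPM there, gave 1.13 in the first set and 1.66 in the second. For these 2 genes the order against Trac is therefore not settled.

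The genes whose levels ran most like Trac over the 6 libraries were sought among 12287 tested genes by Pearson correlation of log2(CPM + 1). They were Pidd1 (0.98), Fbxw4 (0.97), Dcun1d2 (0.97), Smim15 (0.97), Jund (0.97) and Hnrnpm (0.97), given as a description over 6 libraries that share the 2 groups. Pidd1, a gene of the DNA damage response, had 3.40, 3.05 and 3.53 CPM in knockouts, against 1.87, 2.24 and 2.38 in controls. Jund, a subunit of the AP-1 transcription factor, had 102.6, 98.0 and 97.8 CPM against 38.2, 51.1 and 60.5. Over 5 libraries, without control replicate 2, the closest were Pepd, Lxn, Ccr2, Cebpb, Tsn and Cdca7 (0.99 to 1.00), and 0 genes were in both sets of 6.

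The genes above were picked as the closest to Trac, so every other gene was further from it by selection. Among the 12287 genes the other members ranked from 124 (Trdc), 422 (Trbc2) and 481 (Trbc1) to 8485 (Zap70) in likeness to Trac. Their correlations with it over 6 libraries were 0.88 for Trdc, 0.80 for Trbc2, 0.79 for Trbc1, 0.69 for Cd3d, 0.61 for Cd3e, 0.46 for Cd247, 0.38 for Cd3g, 0.35 for Lck and −0.33 for Zap70. Among the rest, Cd3g and Lck ran closely together over the 5 libraries without control replicate 2 (0.94), as did Cd3d and Cd3e (0.95), whereas Trbc2 and Cd3g did not (−0.09). Over all 6 libraries these values were 0.84, 0.29 and 0.37 in the same order, and the pairs were picked as examples. All these correlations share the libraries and, for low genes, a large counting error.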

How the data were processed

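RNA sequencing counts of 6 libraries were analysed. Raw counts (54532 identifiers) and FPKM are both as the authors deposited them. Per the submitters' processing notes, featureCounts 1.5.0-p3, StringTie 1.3.3b, HISAT2 2.0.5 and fastp were used, with mm10 as the build. How strand and shared reads were handled, and which annotation was used, is not given in the sources used here. Gene symbols, coordinates and transcripts came from GENCODE vM21 on GRCm38 (54409 identifiers matched), promoters from RefSeq on GRCm38.p6 for 6 of 10 members.

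All genes kept by filterByExpr were fitted with edgeR 4.0.16 (R 4.3.3), quasi-likelihood, TMM scaling and Benjamini-Hochberg adjustment at 0.05. The SE of a log2 fold change was obtained by dividing it by the square root of the F statistic. DESeq2 1.42.0, limma 3.58.1 (voom, and on log2(FPKM + 1 or 0.1) for genes with at least 0.1 FPKM in 3 libraries), other scalings and filters, title number and each library left out were alternatives. Without control replicate 2, 16729 genes were tested. Permutation tests used scipy 1.17.1. Binomial intervals are exact at 95%. The fit was tested on simulated data. Replicates differed beyond sampling noise (chi-square per degree of freedom 56.8 to 1112), so each library counts once.

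The members and gene lists were chosen with earlier results of these data known. Genes named are all members, up to 4 genes of smallest p per list, and the 6 genes most like Trac among those with a mean of log2 CPM of at least 1; defining markers and counts named beside them were picked as examples. Some listed genes are not reported here.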

Additional observations from a re-analysis of the deposited data

How the results depend on the processing

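Trac stayed above 0 in all 18 alternatives, at log2 fold changes of 2.23 to 3.28, as did Trbc1 (0.41 to 0.93), Trbc2 (0.79 to 1.49), Cd3d (0.43 to 1.33), Lck (0.11 to 0.72), Cd247 (0.10 to 1.10), Trdc (0.30 to 7.99) and Cd3e (0.21 to 4.96). Zap70, at −3.33 without control replicate 1, changed sign without control replicate 2 (0.49 by edgeR, 0.49 by DESeq2, 0.54 by limma-voom) and without control replicates 2 and 3 (1.17), where Cd3g also did (−0.15). That last setting, total counts as scaling, and DESeq2 or limma-voom without control replicate 2 were chosen after seeing the data.

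The count of genes past the threshold, 0 by edgeR, was 530 by DESeq2 and 482 by DESeq2 without control replicate 2, and 0 to 0 with each library left out in turn; the cause was not tested. The median difference of Trac against the other chains was 1.31 to 2.29 with each library left out in turn, lowest without control replicate 1, and 2.57 without control replicates 2 and 3, which leaves 1 control. The segment sum, gamma constant genes included, differed by 2.11 CPM, or 1.78 without control replicate 2. No paired analysis was possible because the labels give no replicate numbers that the groups share. A term for the title number series, which the labels do not explain, gave 2.79 for Trac and 4.29 for Trdc. Members had 0 to 481 counts in a library, which limits Trdc and Cd3e most.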
